A study of Mus musculus with 4 samples.

Results

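The genes described here are those of the cytosolic ribosomal proteins, 45 of the 18193 genes that had a probe set annotated to 1 gene symbol on the array. They were chosen by symbol, as Rpl or Rps followed by a number and at most 1 letter, or Rplp0 to Rplp2. They comprised 24 genes of the large (60S) subunit and 21 of the small (40S) subunit, covered by 98 probe sets, and each gene was read from its probe set of highest mean signal. Of the 45 genes, 44 stood above the floor of 17.4 signal units in at least 1 array. The exception was Rps16, whose probe set had deposited signals of 0.194 to 0.460. Another 110 probe sets listed a matching symbol together with other symbols. They were used only as an unnamed group, so that Rpl3, Rpl5, Rpl10, Rplp1 and Rps27a are not analysed here by name. The 45 genes were chosen by a rule on their symbols, though with earlier results of these data known. Many of the genes named below were picked from them by the size of their differences.

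Total RNA of tibialis anterior muscle, a fast-twitch muscle of the lower leg, was hybridised to 4 Affymetrix Mouse Genome 430 2.0 arrays, 1 for each group of mice. The groups were mdx at 1 month, mdx/MMP-2-/- at 1 month, mdx at 3 months and mdx/MMP-2-/- at 3 months of age, all labelled as strain C57BL/6J. All 4 groups carry the mdx mutation, which removes dystrophin from muscle fibres and causes cycles of fibre death and regeneration, and no healthy muscle was among them. MMP-2-/- mice lack matrix metalloproteinase 2, a secreted enzyme that cuts collagens and other matrix proteins, in all cells. The labels speak of mice in the plural and leave unstated if each array holds the RNA of 1 animal or of a pool. With 1 array in each group there is no replicate, so a difference between 2 arrays has no error and no test.

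Ribosomal proteins, together with the ribosomal RNAs, build the machine that translates mRNA, and a working ribosome needs nearly all of them in equal amounts. Their mRNAs are among the most abundant in a cell, and in mammals they share a start: transcription begins at a C that is followed by a run of pyrimidines, the 5′ terminal oligopyrimidine tract. Through that tract the mTOR pathway and the protein LARP1 control how well these mRNAs are translated and how stable they are. In skeletal muscle, making ribosomes accompanies growth and regeneration, and a few ribosomal proteins have copies that are used mainly in muscle or in germ cells.

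The start regions are printed because the tract is the sequence feature by which this gene family is known. RefSeq promoter sequence of GRCm38.p6 was at hand for 39 of the 45 genes. A tract, counted as C followed by at least 4 C or T on the coding strand and beginning within 10 bases of an annotated start, was found in 26 of these 39 genes (66.7%), against 33.3% of 27025 genes in the same table and 33.8% of the protein-coding ones. The rule reads only the bases near an annotated start and also counts runs that end before it. A gene without a match may thus have a tract where its transcription begins, and a match may lie outside the mRNA. Below are 30 bases around an annotated start, 10 before it and 20 from it, with the tract in capitals. Rpl35, Rps10, Rpl13a, Rps18 and Rps26 are shown because the results below turn on them, Rpl3l because it is the muscle copy, and Rpl11 because no tract was found at its start. They lie at chr2:39005112-39005141 (Rpl35, minus strand), chr17:27635225-27635254 (Rps10, minus), chr7:45128726-45128755 (Rpl13a, minus), chr17:33955646-33955675 (Rps18, minus), chr10:128626487-128626516 (Rps26, minus), chr4:136053374-136053403 (Rpl11, minus) and chr17:24727816-24727845 (Rpl3l, plus).
Rpl35: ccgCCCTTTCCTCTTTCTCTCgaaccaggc
Rps10: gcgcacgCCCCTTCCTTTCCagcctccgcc
Rpl13a: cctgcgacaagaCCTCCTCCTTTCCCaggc
Rps18: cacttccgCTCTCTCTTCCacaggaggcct
Rps26: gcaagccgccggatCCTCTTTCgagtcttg
Rpl3l: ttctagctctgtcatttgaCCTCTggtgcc
Rpl11: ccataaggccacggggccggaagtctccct

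The tract of Rpl3l was the shortest the rule allows, while Rpl35, Rps10 and Rpl13a had long uninterrupted runs. Of other motifs searched on both strands in the 300 bases around the start, CCGGAA or TTCCGG, the core bound by ETS factors such as GABPA, was found in 25 of the 39 genes (64.1%) against 16.7% of the table and 20.9% of its 17491 protein-coding genes. AAGATGG or CCATCTT, the core of the YY1 motif, was found in 7 (17.9%) against 7.28% and 7.18%. GGGCGG or CCGCCC, the GC box bound by SP1, was found in 21 (53.8%) against 38.2% of the table, but 49.2% of its protein-coding genes, a share close to that of the members. These are matches of letters and not measured binding sites.

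The genotype labels were borne out at Mmp2, which had scaled signals of 974 and 835 in the mdx arrays at 1 and 3 months and 20.8 and 38.4 in the mdx/MMP-2-/- arrays. Dmd, the dystrophin gene, gave 113 to 154, but the mdx mutation is a point change and an mRNA signal does not check it. The deposited signals were not scaled to a common level: the 2% trimmed mean of the mdx/MMP-2-/- array at 3 months was 1.34 times that of mdx at 1 month, and those of the remaining arrays were 0.99 and 1.07 times. All values below are therefore quantile-scaled signals on the array's linear scale or log2 differences of them, unless they are called deposited. The 3′ to 5′ signal ratio of Actb, a sign of RNA integrity and labelling, was 1.19 and 1.05 in the arrays at 1 month and 2.36 and 2.09 in those at 3 months. That of Gapdh was 0.850 to 0.936 in all 4. Mature fast fibre markers summed to between 144665 and 148240 in the 4 arrays.

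Ribosomal protein signals were nearly level across genotype and age. Among the 44 genes above the floor, the highest of the 4 arrays exceeded the lowest by a median of 1.15-fold. Differences of 25% are used below as a low mark: a gene counts as at least 25% higher or lower where the larger of its signals exceeds the smaller by 25% or more. In 32 of the 44 (72.7%) the range over the arrays stayed within 25%, against 31.2% of the 12780 genes above the floor. Since bright probe sets vary less, the 34 genes at or above the 90th percentile of mean signal (796 units), 18 of the large and 16 of the small subunit, were also set against the 1278 genes that bright. Of these 34, 30 (88.2%) stayed within 25% over the 4 arrays, against 52.2% of genes as bright. The widest range among the 34 was 1.29-fold. Their lowest mean signal was 2006, at percentile 96.2 of the 12780 genes. Most of the 1278 genes called as bright or equally bright, here and below, were therefore dimmer than every one of the 34. No set matched more closely in signal was made, and the part of signal level in these comparisons was not tested. Relative to the median of equally bright genes, 22 to 30 of the 34 stayed within 25% under the 4 scalings tried, with widest ranges of 1.29 to 1.39-fold. The share of equally bright genes on this measure was not computed, so the comparison with them is given for quantile scaling only.

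**Figure D1:**
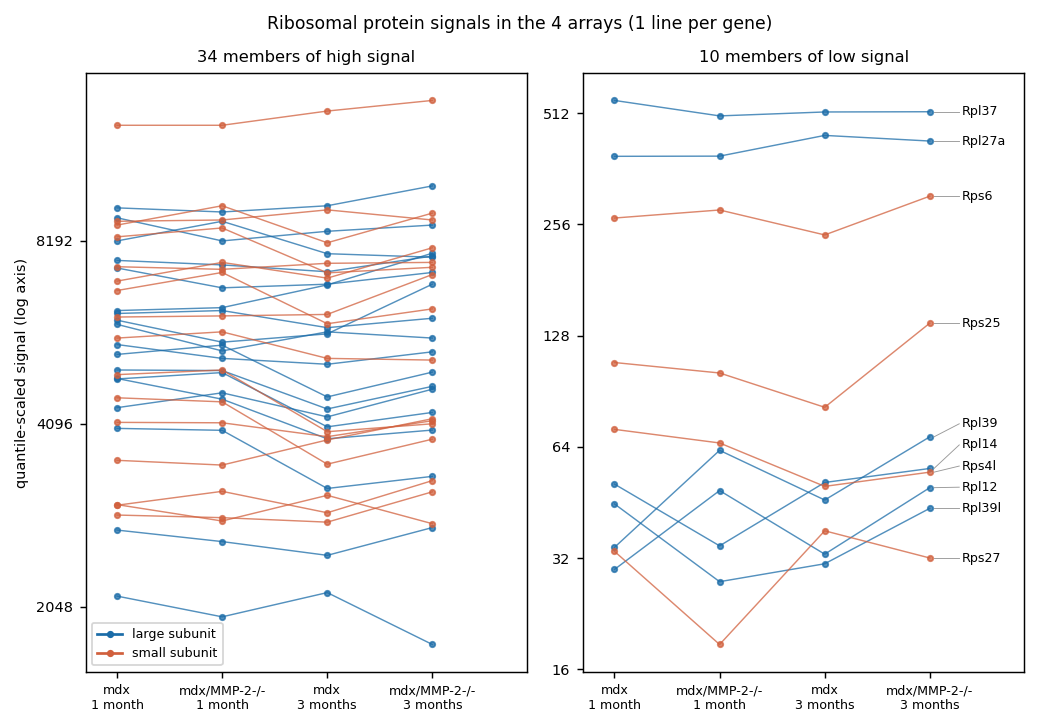
Quantile-scaled signal (vertical log axis) of the ribosomal protein genes above the floor in the 4 arrays (horizontal axis), 1 line per gene, with the 34 genes of high mean signal and the 10 of low mean signal drawn apart. The lines of the bright genes run almost flat, none spanning more than 1.29-fold, while 8 of the 10 dim genes span more than 25%.

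Individual genes show how close the scaled signals were. Rps24, a small-subunit protein, had 7420 in mdx and 7347 in mdx/MMP-2-/- at 1 month, and 7516 and 7542 at 3 months. Rps29, a zinc-binding protein of the small subunit, had 12671 in both genotypes at 1 month, and 13372 and 13920 at 3 months. Quantile scaling gives equal ranks an equal value, and its deposited signals at 1 month were 12202 (mdx) and 13215 (mdx/MMP-2-/-). Relative to all genes its genotype difference at 3 months ran from -0.24 to 0.06 under the 4 scalings. Rpl41, the smallest protein of the large subunit, had 7599 and 7471 at 1 month and 7280 and 7726 at 3 months. In the probe sets these 3 genes were read from, no difference between arrays reached 25%. A further bright probe set of Rpl41 varied more, with 5384 (mdx) and 6105 (mdx/MMP-2-/-) at 1 month and 4495 and 4165 at 3 months. Its log2 age difference in mdx/MMP-2-/- was -0.55. Summed over the 44 genes above the floor, scaled signals reached 203883 (mdx) and 203557 (mdx/MMP-2-/-) at 1 month. The sums at 3 months were 193839 (mdx) and 204649 (mdx/MMP-2-/-).

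At 1 month the median of the group differed little between the genotypes. The median log2 difference, mdx/MMP-2-/- minus mdx, was -0.01 over the 44 genes, with 19 higher and 24 lower, where 46.8% of all genes were higher and 48.3% lower. It was -0.02 for the large subunit and 0.00 for the small subunit. Relative to all genes the 44 stood at -0.05 under median scaling (12 of 44 above that median), -0.01 without scaling (20) and 0.02 under cyclic loess (24). Relative to equally bright genes the bright members stood at 0.03 under median scaling and without scaling, and at 0.04 under cyclic loess. Of the 34 bright members 15 were higher and 18 lower, where 49.1% and 50.2% of equally bright genes were. All 34 lay within 25%, where 1.96% of genes as bright were at least 25% higher and 2.11% lower. Their lowest value belonged to Rpl4, a large-subunit protein that lines the exit tunnel, with 5966 in mdx and 5396 in mdx/MMP-2-/- (log2 -0.15). Their highest belonged to Rplp0, the stalk protein that carries the P1 and P2 proteins, with 8181 and 8811 (0.11). The other stalk protein measured, Rplp2, lay on the opposite side, with 8929 and 8181 (-0.13). Over all members, 2 of 44 were at least 25% higher, where 11.3% of genes were, and 3 of 44 at least 25% lower, where 11.8% of genes were. All 5 had low signals and are described with the dim members.

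At 3 months most ribosomal protein genes had a slightly higher scaled signal in mdx/MMP-2-/- than in mdx, a direction that depended on the scaling. Under quantile scaling 36 of the 44 were higher and 8 lower, where 47.6% and 48.1% of all genes were, and the median log2 difference was 0.09. It was 0.08 for the large subunit (20 of 24 higher) and 0.10 for the small subunit (16 of 20 higher). Among the 34 bright members 28 were higher and 6 lower, where 40.7% and 58.5% of equally bright genes were. None of the 34 differed by 25%, where 8.29% of genes as bright were at least 25% higher and 5.32% lower. Relative to the median of all genes the 44 stood at -0.05 under median scaling and -0.04 without scaling, with 14 of 44 above it in each. Relative to equally bright genes the 34 stood at 0.12 under quantile scaling, 0.08 under cyclic loess and 0.02 under median scaling and without scaling. Members at least 25% higher numbered 5 of 44, all of them dim, where 16.0% of genes were, and 0 were at least 25% lower, where 12.5% were. The 110 probe sets shared with other symbols gave a like picture under quantile scaling: of the 104 above the floor, 83 were higher and 16 lower, with a median of 0.09.

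**Figure D2:**
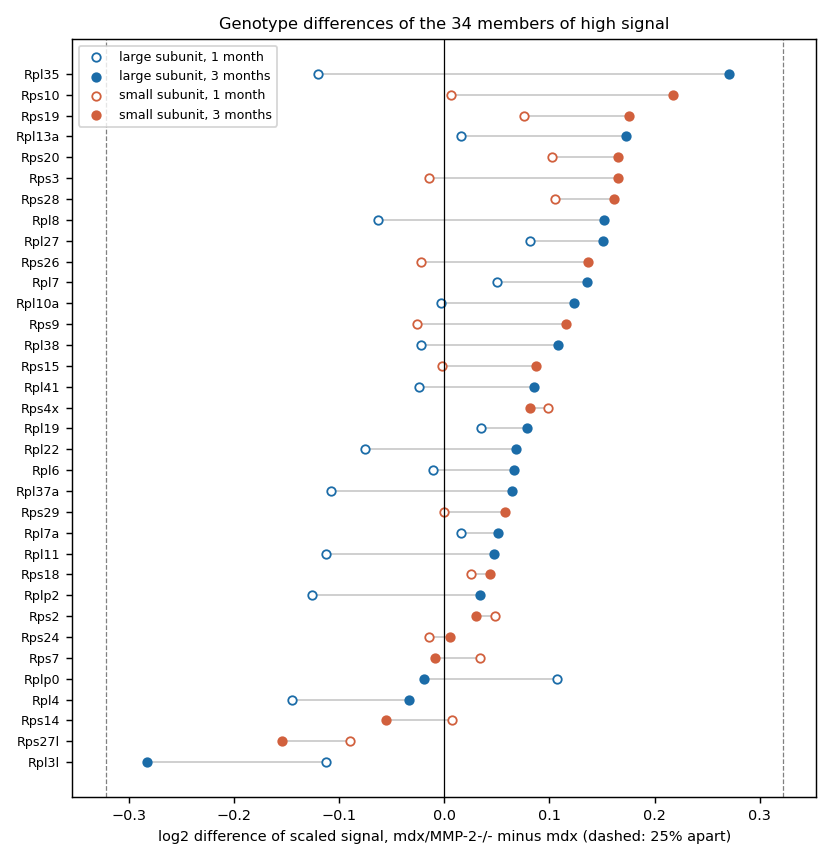
Log2 difference of scaled signal, mdx/MMP-2-/- minus mdx, for the 34 bright ribosomal protein genes at 1 month and at 3 months, 1 row per gene, with dashed lines at a difference of 25%. Points at 1 month scatter on both sides of 0 (15 higher, 18 lower), those at 3 months lie mostly to its right (28 higher, 6 lower), and none passes 25%; the shift at 3 months is that under quantile scaling.

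Rpl35, a large-subunit protein at the exit of the nascent chain, had the largest upward genotype difference at 3 months among the bright members. Its mdx signals were 6061 at 1 month and 5756 at 3 months, and its mdx/MMP-2-/- signals 5577 and 6945. The mdx/MMP-2-/- array was thus the lowest of the 4 at 1 month and the highest at 3 months, with log2 differences of -0.12 and 0.27. The 4 other bright probe sets of Rpl35 were also higher at 3 months, by 0.04 to 0.19. Rps10, a protein of the small-subunit head, had 6134 and 6160 at 1 month and 6195 and 7204 at 3 months, so that 1 array stood above 3 nearly equal ones (log2 0.22 at 3 months). The difference at 3 months stayed above the median of all genes under all 4 scalings for Rpl35 (0.06 to 0.27) and Rps10 (0.04 to 0.22). The same was true of 14 of the 44 members, among them Rps3, Rps19, Rpl27 and Rpl8, while 8 stayed below it and 22 changed side. This count was not made over all genes, so it does not set the members apart from them.

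Under quantile scaling several further members had their highest signal in the mdx/MMP-2-/- array at 3 months. Rps20, a head protein, had 7027 and 7542 in mdx and mdx/MMP-2-/- at 1 month and 7107 and 7971 at 3 months. Rps19, the protein most often mutated in Diamond-Blackfan anaemia, had 3010 and 3172, then 2925 and 3303. Rps3, which lies at the mRNA entry channel, had 2900 and 2871, then 2823 and 3166. Rps28, at the mRNA exit, differed from these: the mdx/MMP-2-/- arrays had 9345 at 1 month and 9088 at 3 months and lay above both mdx arrays, with 8686 and 8124. In the large subunit Rpl38, known for its part in translating Hox mRNAs, had 9271 and 9127, then 9345 and 10074. The genotype difference at 3 months stayed above the median of all genes under all 4 scalings for Rps19 and Rps3. It changed side for Rps20 (-0.04 to 0.17), Rps28 (-0.06 to 0.16) and Rpl38 (-0.15 to 0.11). Under quantile scaling the mdx/MMP-2-/- array at 3 months was the highest for 19 of the 44 members. The mdx array at 3 months was the lowest for 21. Of all genes 26.3% were highest and 26.5% lowest in those arrays. Among the 34 bright members the counts were 14 and 18, and the shares of equally bright genes were not computed.

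The 8 members below the median of all genes at 3 months under every scaling tried included Rpl3l and Rps27l, both copies of other ribosomal proteins. Rpl3l is the striated-muscle counterpart of Rpl3, a protein next to the peptidyl transferase centre. It had 2134 in mdx and 1973 in mdx/MMP-2-/- at 1 month, and 2163 and 1777 at 3 months. Its scaled signal was lower in mdx/MMP-2-/- at both ages, by 0.11 and 0.28 on the log2 scale, and it was the lowest of the 34 at 3 months. Relative to all genes the difference at 3 months was -0.31 to -0.25 under the 4 scalings. In the deposited values, where the mdx/MMP-2-/- array at 3 months was brighter as a whole, Rpl3l had 2045 (mdx) and 2208 (mdx/MMP-2-/-) at that age. Rps27l, a copy of Rps27 known as a p53 target, had 3017 and 2835 at 1 month and 3124 and 2807 at 3 months (log2 -0.09 and -0.15). Its 2 other probe sets gave 0.01 and -0.18 at 3 months. Rplp0 and Rps7, which binds MDM2 when free of ribosomes, also stayed below the median of all genes under all 4 scalings.

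Other values moved with the genotype difference at 3 months, in the same pair of arrays. Of 16 macrophage and monocyte marker genes, 16 had a higher signal in mdx/MMP-2-/-, with a median log2 difference of 0.65. Their summed signals were 15145 and 13730 in mdx and mdx/MMP-2-/- at 1 month and 11212 and 17237 at 3 months. Neutrophil markers summed to 189 and 215 at 1 month and to 133 and 706 at 3 months, with Elane at the floor in all 4 arrays. Markers of dividing cells had a median difference of 0.43, regenerating fibre markers 0.26 (8 of 12 higher), fibroblast markers 0.18 and endothelial markers -0.16. Of the lymphocyte markers, 6 of the 8 measured for T and B cells (Cd2, Cd3e, Cd3g, Cd4, Cd79a and Ms4a1) were at the floor in every array. Mature fast fibre markers had a median of -0.03 under quantile scaling, and relative to all genes -0.16 under cyclic loess, -0.34 under median scaling and -0.33 without scaling. The part of these cells, of the array's overall brightness and of RNA integrity in the ribosomal protein difference was not tested. In whole muscle, fewer cells of a type and less RNA per cell cannot be told apart.

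**Figure D3:**
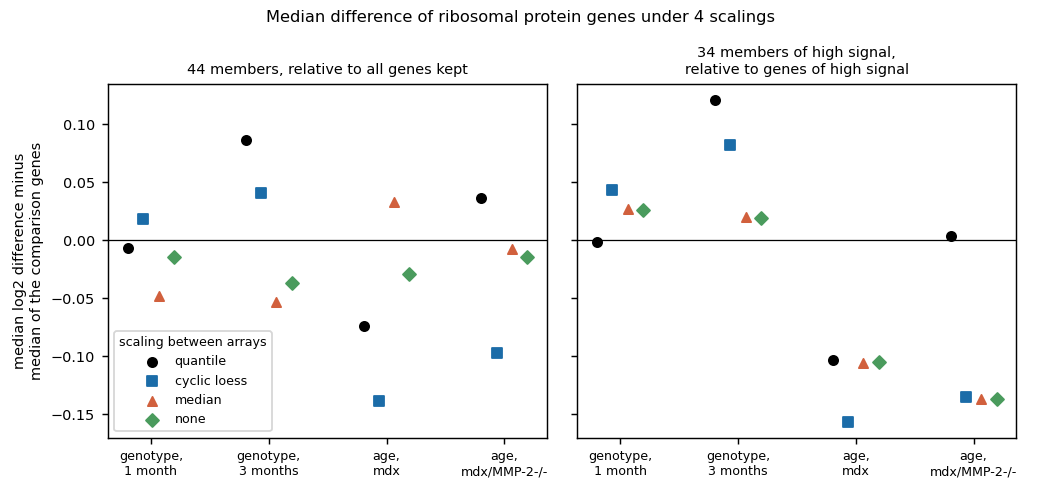
Median log2 difference of the ribosomal protein genes minus the median of the comparison genes (vertical axis) for the genotype and age differences under quantile, cyclic loess, median and no scaling; the panels set all 44 members against all genes and the 34 bright members against genes as bright. The genotype difference at 3 months runs from -0.05 to 0.09 in the first panel, and the age difference in mdx lies below 0 in the second, between -0.16 and -0.10, under every scaling.

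With age the mdx muscle had slightly lower ribosomal protein signals, a direction that held against equally bright genes under the 4 scalings but not against all genes under median scaling. From 1 to 3 months the median log2 difference in mdx was -0.07 over the 44 genes, with 29 lower and 15 higher, where 47.7% of all genes were lower and 48.1% higher. Among the 34 bright members 24 were lower and 10 higher, where 45.3% and 54.1% of equally bright genes were. The lower ones were 15 of the 18 large-subunit and 9 of the 16 small-subunit members. Relative to equally bright genes the 34 stood at -0.10 under quantile, -0.16 under cyclic loess and -0.11 under median scaling and without scaling. Relative to all genes the 44 stood at 0.03 under median scaling. Members at least 25% lower numbered 6 of 44, where 18.8% of genes were, and 1 was at least 25% higher, where 17.5% were. Among the bright members these were 3 lower (Rps26, Rpl11 and Rpl6), where 11.3% of genes as bright were, and 0 higher, where 12.4% were. The value differed with the type of probe set. The 15 bright members read from probe sets with the suffixes _x_at or _s_at, which can bind related transcripts, had a median of 0.01. The other 19 had -0.08, with 17 of 19 lower. Gene by gene the direction often hung on the probe set read. Of 46 further probe sets of members, 24 (52.2%) had the direction of the one used. With the mean of each gene's probe sets the median over the 44 was -0.07.

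In mdx/MMP-2-/- the median age difference was 0.04 over the 44 genes, with 27 higher and 16 lower, where 50.1% and 45.7% of all genes were, and it changed side with the scaling. The 34 bright members stood at 0.00 relative to equally bright genes under quantile scaling and at -0.14 under cyclic loess, median scaling and no scaling, with 6 of 34 above that median in each of the latter. Members at least 25% higher numbered 4 of 44, where 19.7% of genes were, and 0 were at least 25% lower, where 17.5% were. Of the 34 bright members 18 were higher and 15 lower, where 52.3% and 47.3% of genes as bright were. All 34 lay within 25%, where 14.3% of genes as bright were at least 25% higher and 12.8% lower. Regenerating fibre markers were lower at 3 months in both genotypes, with medians of -0.76 in mdx and -0.60 in mdx/MMP-2-/-. Macrophage markers had -0.32 and 0.46, and markers of dividing cells -0.74 and -0.05. Their part in the age differences, and that of the Actb ratio, was not tested.

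Among the bright members the order of the genes by age difference was alike in the 2 genotypes, which share no array in this comparison. Over these 34 Pearson's r between the age differences was 0.75 and Spearman's rho 0.69. The same r over the 1278 genes as bright was 0.66, so that the likeness is near that of bright genes in general. Under the other scalings r over the 34 was 0.68 to 0.74. Direction was shared less often: 58.8% of the 34 had the same sign in both genotypes, where 71.1% of genes as bright had. Lower in both were 13 (38.2%) and higher in both 7 (20.6%), where 32.1% and 39.0% of genes as bright were. With the dim members included, r over the 44 was 0.29 and rho 0.49, where all genes had 0.35 and 0.33. The points share the array pairs and their scaling. Between the genotype differences at 1 and 3 months r was 0.30 over the same 34 genes and -0.02 over the 1278 genes as bright.

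**Figure D4:**
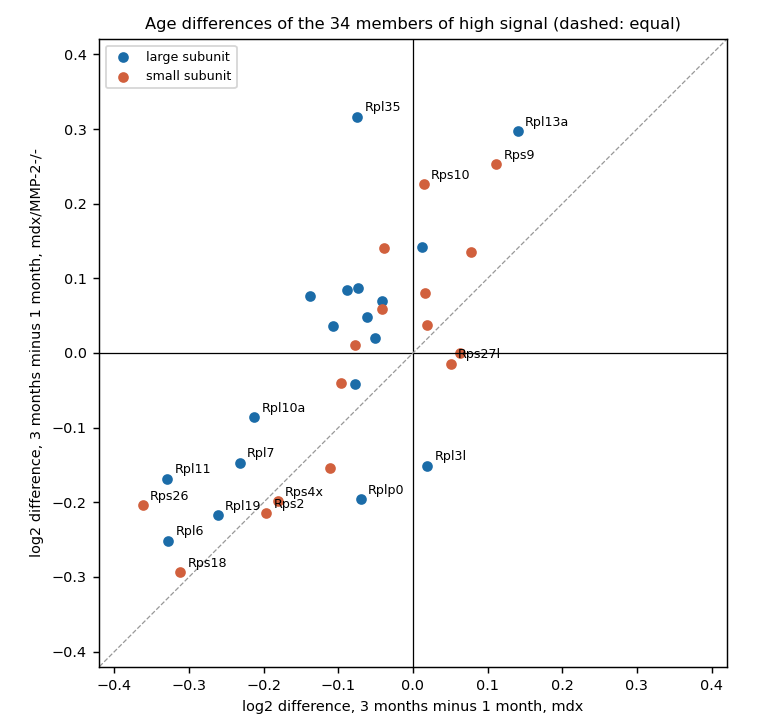
Age difference (3 months minus 1 month, log2 of scaled signal) in mdx on the horizontal axis and in mdx/MMP-2-/- on the vertical axis, 1 point per bright ribosomal protein gene, with the line of equal values dashed. Rps26, Rpl11, Rpl6, Rps18 and Rpl19 lie at the lower left, and Rpl13a and Rps9 at the upper right; most points lie above the line (27 of 34).

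Among the bright members Rps26, which lies at the mRNA exit channel, had the lowest age difference in mdx. It had 4519 in mdx at 1 month and 3515 at 3 months, and 4450 and 3864 in mdx/MMP-2-/- (log2 -0.36 and -0.20). Both arrays at 3 months lay below both at 1 month. Rpl11, which with Rpl5 carries the 5S rRNA and binds MDM2, went from 4862 to 3870 in mdx and from 4495 to 3999 in mdx/MMP-2-/- (-0.33 and -0.17). Rpl6, another large-subunit protein, went from 4025 to 3207 and from 3996 to 3357 (-0.33 and -0.25). Rpl19, which forms a bridge between the subunits, had 4853 and 4049 in mdx and 4971 and 4275 in mdx/MMP-2-/- (-0.26 and -0.22). Rpl7, Rpl10a, Rps2 and Rps4x had the same direction in both genotypes, at -0.23 to -0.09. All 8 of these genes stayed below the median of all genes under all 4 scalings in both genotypes.

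Rpl13a, which is released from the ribosome by interferon-γ signalling, and Rps9, which sits at the mRNA entry channel, went the other way. Rpl13a had 6286 and 6928 in mdx at 1 and 3 months and 6356 and 7808 in mdx/MMP-2-/- (log2 0.14 and 0.30), and Rps9 had 3567 and 3853, and 3504 and 4175 (0.11 and 0.25). Both stayed above the median of all genes under all 4 scalings. Other probe sets of the same genes did not bear this out in mdx: the 3 others of Rpl13a gave -0.27 to -0.09, and the other bright one of Rps9 gave -0.23. In mdx/MMP-2-/- the 3 of Rpl13a gave 0.09 to 0.65 and that of Rps9 -0.04. Rps18, a head protein of the small subunit, had 4933 and 3975 in mdx and 5020 and 4096 in mdx/MMP-2-/- (-0.31 and -0.29), and 1 further bright probe set gave -0.24 and -0.20. Another bright one gave 0.09 and 0.35. For Rps9 and Rps18 the direction with age therefore depended on the probe set read in both genotypes. For Rpl13a it did so in mdx only, and in mdx/MMP-2-/- all its probe sets were higher at 3 months.

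Over all members, 20 had further probe sets above the floor, 46 in number. Of these 46, 37 (80.4%) had the direction of the probe set used for the genotype difference at 3 months, and 36 (78.3%) for the age difference in mdx/MMP-2-/-. For the age difference in mdx 24 (52.2%) did, and for the genotype difference at 1 month 26 (56.5%). Probe sets on opposite sides of 0 by at least 0.3 each way were found for Rps6 in the genotype difference at 3 months, and for Rpl41 and Rps24 in the age difference in mdx/MMP-2-/-. Of the 46, 3 passed 2-fold in a genotype or age difference, unlike the probe set used for the same gene. For Rpl7 a further probe set had 3245 and 2293 in mdx and mdx/MMP-2-/- at 1 month and 1608 and 1242 at 3 months, a log2 age difference of -1.01 in mdx. For Rps10 one had 830.2 and 693, then 1267 and 1547, an age difference of 1.16 in mdx/MMP-2-/-. For Rpl37a a dim one had 115 and 19.2, then 20.3 and 71.0, with genotype differences of -2.59 and 1.81 and age differences of -2.51 and 1.89.

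The change of the genotype difference with age, 3 months less 1 month, had a median of 0.10 over the 44 genes, with 34 higher and 10 lower, where 50.4% and 49.6% of all genes were; relative to all genes it was -0.03 under median scaling and -0.02 without scaling. Of the 34 bright members 27 were above 0 and 7 below, where 43.0% and 57.0% of genes as bright were. It was above 0 for Rpl35 (log2 0.39) and Rps10 (0.21) and below 0 for Rpl3l (-0.17) and Rplp0 (-0.13), each on the same side of the median of all genes under all 4 scalings. It uses the same 4 arrays as the differences above and is no separate evidence. Members past 25% in it were 5 higher, where 22.2% of genes were, and 0 lower, where 18.7% were; among the bright ones only Rpl35 was, where 11.1% of genes as bright were higher by that much and 7.90% lower. Rpl39l alone was at least 2-fold higher, where 2.92% of genes were, and none was 2-fold lower, where 1.70% were. In the 2 genotype and 2 age differences no member reached 2-fold in either direction in the probe set it was read from. The shares of all genes past 2-fold between genotypes were 0.587% higher and 0.595% lower at 1 month, and 1.19% and 0.415% at 3 months. With age the shares were 0.962% and 1.56% in mdx, and 1.48% and 1.23% in mdx/MMP-2-/-.

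The larger differences lay in the 10 members of low signal, whose highest mean was 522 units. A low signal here belongs to the probe set and says nothing of the mRNA's level. Rps25, a small-subunit protein used by viral internal ribosome entry sites, had 108 in mdx and 101 in mdx/MMP-2-/- at 1 month, and 81.9 and 138 at 3 months. Its genotype difference was -0.09 at 1 month and 0.76 at 3 months. Rpl39l, the germ cell copy of Rpl39, had 44.8 and 27.6 at 1 month and 30.9 and 43.6 at 3 months, a difference of -0.70 and then 0.50. Rpl39 itself had 34.2 and 62.6 at 1 month and 45.9 and 68.1 at 3 months, higher in mdx/MMP-2-/- at both ages (0.87 and 0.57). Rpl12, a stalk-base protein, had 29.8 and 48.7, then 32.8 and 49.6 (0.71 and 0.60). For Rpl39 and Rpl12 both mdx/MMP-2-/- arrays lay above both mdx arrays.

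The remaining dim members were read near the floor or differed less. Rps27, a zinc-binding small-subunit protein, had 33.4 and 18.7 at 1 month and 37.9 and 32.0 at 3 months, and Rpl14 had 50.7 and 34.5, then 51.2 and 55.9. In each the mdx/MMP-2-/- array at 1 month was the lowest of the 4. Rps4l, a copy of Rps4x, had 71.3 and 65.6 at 1 month and lower signals at 3 months, with log2 age differences of -0.51 in mdx and -0.26 in mdx/MMP-2-/-. Rps6, the ribosomal protein that S6 kinases phosphorylate, had 266 and 280, then 240 and 305 (0.07 and 0.35 between genotypes). Rpl37 and Rpl27a gave 503 to 554 and 391 to 446.

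An additive model of genotype and age was the only test the 4 arrays allowed, with 1 residual degree of freedom per gene. That residual is the change of the genotype difference with age, which the fit takes as error. The SE and p values below therefore measure no spread between replicates. In limma with Benjamini-Hochberg adjustment over 12780 genes, 0 members and 0.00% of all genes were called for genotype, and the same held for age. At an unadjusted p under 0.05 there were 2 members for genotype, where 4.37% of genes passed, and 0 for age, where 13.8% did. The 2 were Rpl39 (log2 0.72, SE 0.17) and Rpl12 (0.65, SE 0.15), each with a Benjamini-Hochberg adjusted p of 0.982 in limma and higher in 2 of 2 mdx/MMP-2-/- arrays than in the mdx array of the same age. With a prior variance that follows the mean signal, limma called 89 genes for age and 1 for genotype, and 0 members. Mmp2 itself was not called in the fit.

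The other genes of translation give the surroundings. Ribosomal genes outside the naming rule were 4: Rpsa, Fau, Rpl22l1 and Rpl7l1. Rpsa, a small-subunit protein also known as the laminin receptor, had 4797 and 4758 at 1 month and 4658 and 5527 at 3 months (log2 0.25 between genotypes at 3 months), and Fau, which encodes the small-subunit protein eS30 fused to a ubiquitin-like protein, had 3450 and 3713, then 3450 and 3947 (0.19). Ribosome biogenesis factors had a median genotype difference of 0.18 at 3 months, with 31 of 42 higher and 11 lower, and stayed at 0.17 to 0.24 relative to all genes under the 4 scalings. Fbl, the methyltransferase fibrillarin, had 229 and 276 at 1 month and 208 and 367 at 3 months, and Rrp9 was at the floor in 3 arrays and at 37.0 in mdx/MMP-2-/- at 3 months. Mitochondrial ribosomal proteins, which build the separate ribosome of mitochondria, went the other way. Of 76, 63 were lower in mdx/MMP-2-/- at 3 months, with a median of -0.12, and stayed at -0.12 to -0.10 relative to all genes under the 4 scalings. No difference between these lists was tested.

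Elongation factors (11 genes) had a median genotype difference of 0.05 at 3 months and initiation factors (32 genes) 0.05, with 8 and 20 higher. Eef1a1, which brings aminoacyl-tRNA to the ribosome and has a pyrimidine start like the ribosomal proteins, had 7050 and 7460 at 1 month and 6018 and 7078 at 3 months. Eif4a1, the cap-complex helicase, had 1560 and 1417, then 1444 and 1973 (log2 0.45 at 3 months). Pabpc1, the poly(A)-binding protein, had 4068 and 4183, then 2639 and 3404, lower with age by 0.62 in mdx and 0.30 in mdx/MMP-2-/- on the log2 scale. RNA polymerase I genes (13) had a median of 0.04 between genotypes at 3 months, cytosolic aminoacyl-tRNA synthetases (19) 0.05, and mTOR and S6 kinase genes (13) -0.04, which was 0.02 relative to all genes without scaling.

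The medians of members with and without a tract at the start lay close together. Of the 29 bright members with a RefSeq promoter, 19 had a tract near an annotated start by the rule used here and 10 did not. The median genotype difference at 3 months was 0.07 with a tract and 0.08 without, and the median age difference in mdx was -0.07 in both. The spread of that age difference was unlike: all 10 members without a tract were lower, the highest at -0.04, while of the 19 with a tract 12 were lower and 7 higher, up to 0.14. The type of probe set differed as well. Of the higher ones, Rpl13a, Rpl38, Rps24, Rps27l and Rps9 were read from _x_at probe sets, and Rps10 and Rpl3l were not. Of the members without a tract only Rpl37a and Rpl41 were. The part of the tract and that of the probe set type in this spread was not tested. In mdx/MMP-2-/- the age medians were -0.01 and 0.02. Rpl35, Rps10 and Rpl13a, whose printed runs are long, were higher at 3 months in mdx/MMP-2-/- than in mdx by 0.17 to 0.27. Rps18, also with a long run, differed by 0.04. Rpl7a and the dim Rpl27a, with runs of 17 and 20 bases, differed by 0.05 and -0.05. For Rpl13a this genotype difference relative to all genes ran from -0.04 to 0.17 under the 4 scalings.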

How the data were processed

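The authors deposited an intensity for each probe set, on a linear scale. Per the submitters' processing notes these were MAS5 signals from Affymetrix Expression Console, whose versions and scaling settings are not given in the sources used here. RNA was purified on RNeasy columns and biotin-labelled, per the labels' protocols. Of 45037 probe sets that are no controls, 34945 had 1 gene symbol, 932 several and 9160 none here. Arrays were quantile normalized (limma 3.58.1, R 4.3.3), signals below 17.4, the 50th percentile, were raised to it, and log2 was taken. This left 12780 genes above the floor in at least 1 array. Differences were taken between arrays, and members past 25% and past 2-fold were counted. The precision is limited by the number of arrays, 1 per group. The additive model was fitted with lmFit and eBayes and tested on simulated data. Tables were made in Python 3.11.15 with pandas 2.3.3.

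Alternatives were cyclic loess, median and no scaling, other floors, a pseudocount, other rules for the probe set of a gene, and leaving out paralogs. The members, lists, named genes and thresholds were chosen with earlier results of these data known. Named genes were paralog pairs, stalk and 5S proteins, Rps6, Rpl13a, the 3 members of each subunit with the largest difference each way, those highest or lowest in signal, those called or past 2-fold, those whose probe sets disagreed by 0.3 each way, and for other lists the 2 largest. Other genes named were chosen after their values were seen. Promoter sequences came from RefSeq, GRCm38.p6. The files give no coordinates for probe sets.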

Additional observations from a re-analysis of the deposited data

Results flagged for a closer look

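Rpl39l had opposite genotype differences at the 2 ages, -0.70 on the log2 scale at 1 month and 0.50 at 3 months, which are 1.20 apart. Seen by age, the same 4 arrays gave -0.54 in mdx and 0.66 in mdx/MMP-2-/-, again 1.20 apart. Rps25 had age differences of -0.40 in mdx and 0.45 in mdx/MMP-2-/-, 0.85 apart. With 1 array in each group these differences were not tested, and both probe sets are dim, with scaled signals of 27.6 to 44.8 and 81.9 to 138.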

How the results depend on the processing

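Values are medians of the members less the median of the comparison genes, on the log2 scale. Against all genes the genotype difference at 3 months moved from 0.09 to -0.053 under median scaling and -0.036 without scaling, and its change with age turned from 0.10 to -0.035 and -0.022. The age difference in mdx moved to 0.033 under median scaling. That in mdx/MMP-2-/- moved to -0.10 under cyclic loess, and for bright members against genes as bright to -0.14 under no, median and cyclic loess scaling, an alternative chosen after seeing the data. The large minus small subunit value for the change of the genotype difference moved to -0.074 without _x_at and _s_at probe sets. At 25% in place of 2-fold the counts of members were 5 and 5 for genotype at 1 and 3 months, 7 in mdx and 4 in mdx/MMP-2-/- for age, and 5 for the change of the genotype difference. At an unadjusted p the limma fit passed 2 members for genotype. The age difference of Rpl3l in mdx/MMP-2-/- turned to 0.021 under median scaling and 0.014 without scaling. Of the other alternative values of the comparisons, 144 kept their call or moved by under 0.1, but 11 medians among them, none over 0.043 in size, lay on the other side of 0 from the value reported. Without scaling the median of all genes lay at 0.41 for genotype at 3 months and 0.26 for age in mdx/MMP-2-/-. No analysis paired by replicate was possible, and no array could be left out, because each group has 1 array. The additive fit sets the genotypes against each other within each age.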
